A study of Mus musculus with 10 samples.

Results

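The platelet genes are 10 genes that code for granule contents, surface receptors and the cytoskeleton of platelets: Ppbp, Pf4, Itga2b, Itgb3, Gp1bb, Gp5, Gp9, Clec1b, Tubb1 and Treml1. They were found by matching the Ensembl identifiers of the deposited count table to mouse symbols, and all 10 were present among its 32285 genes. The study profiled blood RNA of C57/BL6J mice, and its labels give leukocyte as the cell type. Control mice (Con, 0 h) were set beside mice under sleep deprivation (SD), bled after 6, 12, 24 or 48 h, and mice under an earlier published way of restricting sleep (SASD), bled after 6, 12, 24, 48 or 120 h. Every group was a single library made from pooled blood RNA of 3 mice, so the 10 libraries held no replicates. All groups shared the strain, pentobarbital anaesthesia before bleeding and EDTA as anticoagulant, and how SD and SASD were done is not given in the sources used here.

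Platelets have no nucleus. They are shed by megakaryocytes of the bone marrow and lungs and carry megakaryocyte RNA that they cannot renew, so platelet RNA in blood follows both the number of platelets and how recently they were made. Ppbp and Pf4 code for chemokines stored in alpha granules. Itga2b and Itgb3 code for the paired chains of the fibrinogen receptor that links platelets in a clot, and Gp1bb, Gp5 and Gp9 for parts of the receptor for von Willebrand factor that first holds platelets to an injured vessel. Clec1b codes for the podoplanin receptor CLEC-2, Treml1 for a receptor kept in alpha granules that reaches the surface on activation, and Tubb1 for the beta-tubulin of the microtubule ring that gives platelets their disc shape. Blood leukocyte preparations commonly keep some platelets. In such bulk samples, fewer platelets and less RNA per platelet cannot be told apart.

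The promoters of the platelet genes are shown because GATA and ETS family factors, among them GATA1 and FLI1, are known to drive megakaryocyte genes. A RefSeq table on GRCm38.p6 gave 250 bases before to 50 bases after the start site for 9 of the 10 genes. Both strands were searched for AGATAA or TGATAA, the letters a GATA factor prefers, and for AGGAAG or CGGAAG, which hold the core of an ETS site. Matches are in capitals, as they read on the gene's own strand, and no match overlapped another. Pf4 (chr5:90772185-90772484, plus strand) and Gp5 (chr16:30310732-30311031, minus strand) held both kinds of match. Itga2b (chr11:102469834-102470133, minus strand), the gene with the widest range of levels, held ETS letters at 2 places, and Clec1b (chr6:129397047-129397346, plus strand) held GATA letters at 2 places. Ppbp (chr5:90768268-90768567, plus strand), the most abundant of the 10 per length, held neither.
Pf4: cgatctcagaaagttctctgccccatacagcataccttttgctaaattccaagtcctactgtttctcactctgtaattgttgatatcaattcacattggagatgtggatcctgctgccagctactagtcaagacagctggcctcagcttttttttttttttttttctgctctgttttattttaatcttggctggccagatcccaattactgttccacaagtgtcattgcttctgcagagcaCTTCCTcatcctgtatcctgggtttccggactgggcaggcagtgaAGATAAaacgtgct
Gp5: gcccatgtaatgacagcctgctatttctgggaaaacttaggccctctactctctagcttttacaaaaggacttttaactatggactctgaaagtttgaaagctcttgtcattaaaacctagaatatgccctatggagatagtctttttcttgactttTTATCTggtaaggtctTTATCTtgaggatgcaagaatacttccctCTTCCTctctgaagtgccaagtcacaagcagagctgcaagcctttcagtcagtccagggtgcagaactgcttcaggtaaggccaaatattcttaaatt
Itga2b: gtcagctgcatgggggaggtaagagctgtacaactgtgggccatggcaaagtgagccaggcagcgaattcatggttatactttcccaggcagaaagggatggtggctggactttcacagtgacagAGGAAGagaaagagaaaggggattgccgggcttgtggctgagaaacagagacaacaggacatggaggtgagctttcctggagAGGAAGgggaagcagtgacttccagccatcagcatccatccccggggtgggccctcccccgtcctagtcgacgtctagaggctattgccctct
Clec1b: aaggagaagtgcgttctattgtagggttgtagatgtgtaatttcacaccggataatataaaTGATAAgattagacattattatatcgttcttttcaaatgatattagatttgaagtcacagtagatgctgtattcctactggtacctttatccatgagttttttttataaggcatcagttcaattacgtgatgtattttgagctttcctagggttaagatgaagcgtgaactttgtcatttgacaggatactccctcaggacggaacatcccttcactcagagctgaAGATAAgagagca
Ppbp: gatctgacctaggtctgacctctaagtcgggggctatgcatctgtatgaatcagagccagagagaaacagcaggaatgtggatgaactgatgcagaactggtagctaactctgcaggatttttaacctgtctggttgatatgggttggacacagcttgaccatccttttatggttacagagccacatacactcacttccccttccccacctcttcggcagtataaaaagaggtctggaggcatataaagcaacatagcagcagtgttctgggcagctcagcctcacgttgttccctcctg

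GATA letters were found in 3 of the 9 promoters (Pf4, Gp5 and Clec1b), against 19% of 27025 RefSeq promoters of the same length. ETS letters were found in 6 of 9 (Pf4, Itga2b, Gp1bb, Gp5, Gp9 and Tubb1), against 46.4%. Both were found in Pf4 and Gp5, which is 2 of 9 against 7.85%, and neither in Ppbp and Treml1. A match describes the letters and is not a binding site shown by these data.

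Total counts per library ran from 7825120 in SASD 24 h to 27501393 in Con. Markers of neutrophils, monocytes, B cells, T cells and NK cells were all detected in every library, as the leukocyte label implies, and 10 of 10 erythroid markers were too. Con, SD 48 h and SASD 48 h stood apart from the other 7 libraries. Their haemoglobin genes took 0.727%, 0.316% and 0.275% of counts, against 3.57% to 6.96% in the rest, and 77.2%, 27.6% and 61.9% of 1092 olfactory receptor genes had a count, against 2.75% to 5.13%, at unequal depth. Platelet results are therefore given beside haemoglobin shares, and those of 48 h and Con rest on these libraries. Of 8 endothelial markers, 3 were detected in every library, and the summed share of all 8 ran from 0.0008% to 0.00225% of counts.

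Platelet genes made up 0.468% of the counts in Con (95% Clopper-Pearson interval 0.465% to 0.470%). The SD libraries had shares of 0.728% (6 h), 0.816% (12 h), 0.506% (24 h) and 0.422% (48 h). The SASD libraries had shares of 0.881% (6 h), 0.920% (12 h), 1.08% (24 h), 0.247% (48 h) and 0.429% (120 h). The share thus peaked at 12 h in the SD libraries and at 24 h in the SASD libraries, and the lowest library was SASD 48 h. Intervals of this kind cover counting error alone, and SD 48 h (0.419% to 0.426%) and SASD 120 h (0.425% to 0.433%) overlapped. Haemoglobin and platelet shares did not order all libraries alike. SD 24 h had more haemoglobin than SD 12 h (5.64% against 4.2%) and a lower platelet share (0.506% against 0.816%). Con, SD 48 h and SASD 48 h, the libraries low in haemoglobin, had platelet shares of 0.247% to 0.468%. The part of haemoglobin in the platelet shares was not tested.

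**Figure D1:**
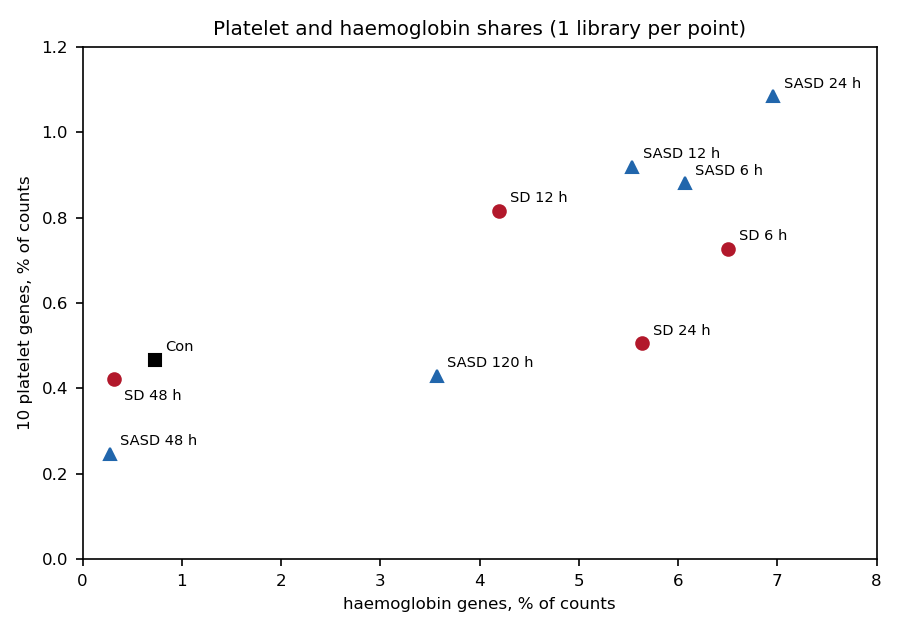
Share of counts from the 10 platelet genes (y axis, %) against the share from haemoglobin genes (x axis, %), 1 point per pooled library, with squares for Con, circles for SD and triangles for SASD; 95% counting intervals are smaller than the symbols. The libraries low in haemoglobin (Con, SD 48 h, SASD 48 h) have 0.247% to 0.468% platelet counts, while SD 24 h and SASD 120 h lie low on the y axis at 5.64% and 3.57% haemoglobin.

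Levels are given as scaled CPM, which are counts brought to a common library size by TMM, a scaling under which most genes do not move. The geometric mean over the 9 measured platelet genes was highest in SASD 24 h (991 scaled CPM), followed by SASD 12 h (759), SASD 6 h (740), SD 12 h (691), SD 6 h (609) and SD 24 h (427). It was 336 in SASD 120 h, 326 in SD 48 h and 317 in Con, and lowest in SASD 48 h at 172. On the log2 scale SASD 24 h lay 1.64 above Con, and SASD 48 h was at -0.88 relative to Con, with 9 of 9 genes above Con in the first and 0 of 9 in the second. SASD 120 h, SD 48 h and Con lay within 0.083 of each other on that scale. These distances depend on the scaling. TMM factors ran from 0.835 (SASD 24 h) to 1.19 (Con), which widens the distance between SASD 24 h and Con. By share of counts, SASD 24 h (1.08%) was still highest and SASD 48 h (0.247%) lowest. Con (0.468%) then lay above SASD 120 h (0.429%) and SD 48 h (0.422%), unlike its place by geometric mean. With 1 library per group, no spread between replicates is known for any neighbours in either order.

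The alpha granule chemokines Ppbp and Pf4 are neighbours on chromosome 5 (chr5:90768518-90770063 and chr5:90772435-90773383, GRCm38). Values of a series are listed in order of time, the SD series from 6 to 48 h and the SASD series from 6 to 120 h. Ppbp stood at 1055 scaled CPM in Con, at 2028, 2169, 1404 and 970 along the SD series, and at 2295, 2617, 3392, 575 and 1230 along the SASD series. Its SASD 24 h library was 5.90-fold above SASD 48 h, the highest over the lowest. Pf4 stood at 321 in Con, at 461, 609, 404 and 406 along the SD series, and at 537, 682, 620, 166 and 322 along the SASD series. Pf4 peaked at 12 h in both courses, and its range of 4.11-fold was the narrowest of the 9 measured genes.

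The fibrinogen receptor genes lie on chromosome 11, Itga2b at chr11:102453297-102470122 and Itgb3 at chr11:104608000-104670476. Itga2b, the alpha IIb chain, stood at 828 scaled CPM in Con, at 1853, 2387, 1332 and 915 along the SD series, and at 2560, 2449, 3793, 442 and 925 along the SASD series. Its 8.58-fold range was the widest of the 9. Itgb3, the beta 3 chain, which other cells also pair with the alpha v chain, stood at 526 in Con, at 1067, 1215, 739 and 606 along the SD series, and at 1309, 1360, 1790, 328 and 413 along the SASD series. In SASD 120 h Itga2b was above its level in Con in scaled CPM, whereas Itgb3 was below. The side of Itga2b depended on the scaling. As a share of all counts it was slightly lower in SASD 120 h (9852 of 10110229) than in Con (27127 of 27501393).

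Among the genes of the von Willebrand factor receptor, Gp5 (chr16:30307685-30310779) stood at 137 scaled CPM in Con, at 322, 353, 217 and 120 along the SD series, and at 403, 383, 576, 78.5 and 172 along the SASD series. Gp9 (chr6:87778072-87779768) stood at 110 in Con, at 287, 358, 204 and 123 along the SD series, and at 419, 367, 472, 59.4 and 178 along the SASD series. Both peaked at SASD 24 h and were lowest at SASD 48 h, with ranges of 7.34-fold and 7.94-fold. Gp1bb (chr16:18620317-18622403) had 2 to 24 counts per library and was not measured. Of its 2087 exon bases, 1902 (91.1%) lie within exons of Sept5, a septin gene on the same strand with 20 to 105 counts, and read pairs overlapping more than 1 gene were not counted. Gp1bb therefore enters no ratio of single libraries, and its slope in the SD trend, where it passed the count filter, rests on these few counts. Gp1ba, the ligand-binding chain of this receptor, lay at a log2 ratio of SD over SASD of -1.32 at 24 h and 1.05 at 48 h, beside -1.41 and 0.62 for Gp5.

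Clec1b (chr6:129397297-129409335) stood at 241 scaled CPM in Con, at 315, 399, 273 and 252 along the SD series, and at 397, 439, 565, 108 and 228 along the SASD series. Of its exon bases, 184 (3.61%) are shared with Clec9a, a dendritic cell receptor gene with 40 to 206 counts per library, against 2428 to 7882 for Clec1b. Treml1 (chr17:48359916-48367176) stood at 99.9 in Con, at 201, 212, 113 and 94.5 along the SD series, and at 207, 220, 278, 55.6 and 102 along the SASD series. Tubb1 (chr2:174450695-174457882) stood at 607 in Con, at 1059, 882, 612 and 537 along the SD series, and at 1158, 1030, 1511, 345 and 506 along the SASD series. Tubb1 was the single measured platelet gene whose highest SD library was 6 h rather than 12 h.

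Per kilobase of exon, the median level over the 10 libraries was 1585 scaled CPM for Ppbp, 601 for Pf4 and 531 for Tubb1. Itga2b (292) and Gp9 (278) came next, followed by Itgb3 (153), Gp5 (123), Treml1 (112) and Clec1b (57.7). The granule chemokines and the platelet tubulin thus led the list, and the alpha chain of the fibrinogen receptor stood above the beta chain.

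**Figure D2:**
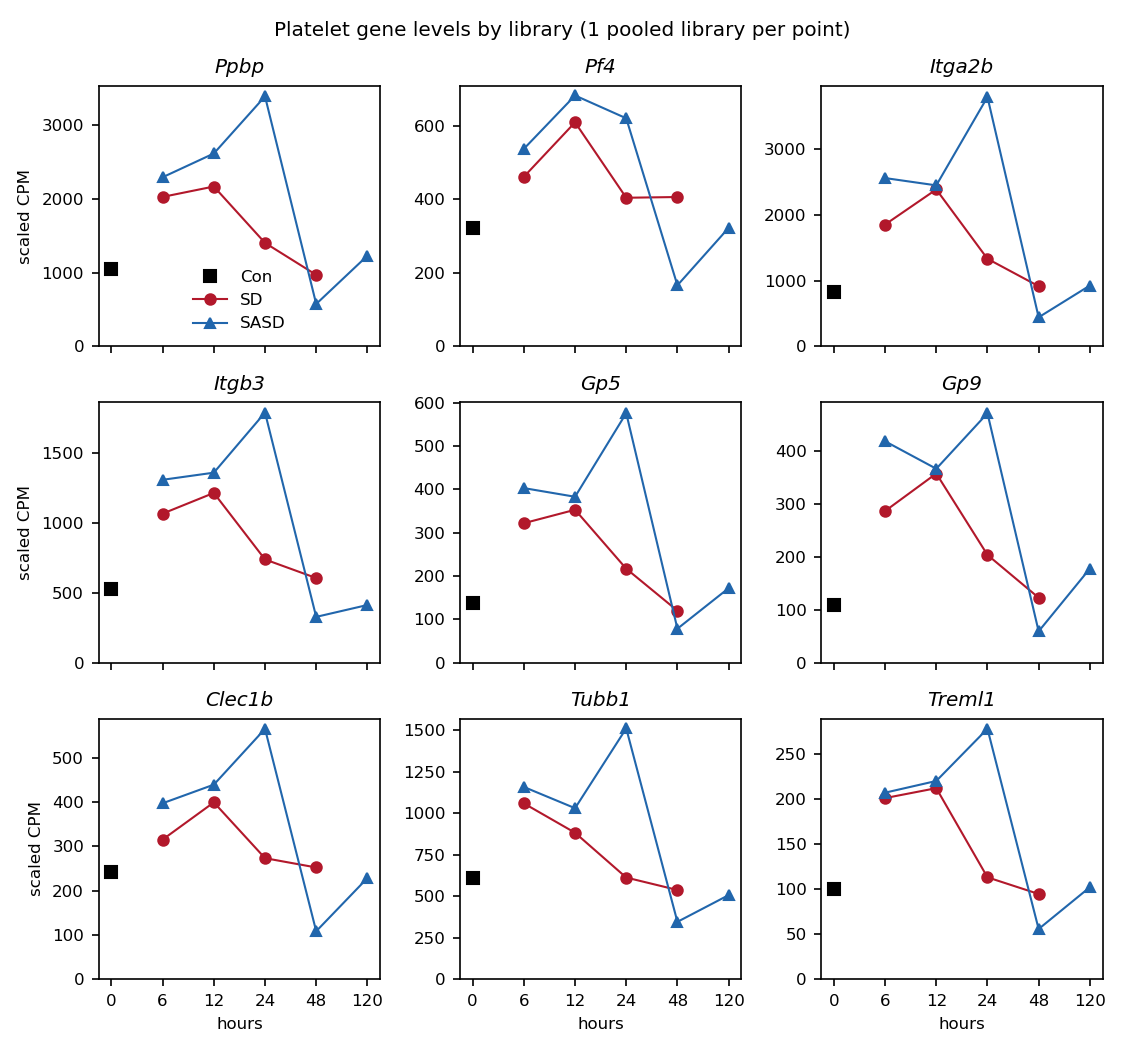
Level of each of the 9 measured platelet genes (y axis, scaled CPM, from 0) by time (x axis, hours, evenly spaced), 1 pooled library per point, with a square for Con, circles for SD and triangles for SASD. All 9 genes are lowest in SASD 48 h; in SASD 24 h 8 of 9 have their highest point, and Pf4 has its highest at SASD 12 h with 682.

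At 6 and 12 h the platelet genes differed by less than 2-fold between SD and SASD. All 9 measured genes lay below the SASD library at 6 h, with a median log2 ratio (SD over SASD) of -0.30 (range -0.55 to -0.04). None of the 9 was at least 2-fold lower, against 0.901% of the 11537 genes measured in this pair. The lowest ratio at 6 h was that of Gp9 (0.685, 95% counting interval 0.654 to 0.718), and that of Treml1 was 0.975 (0.918 to 1.04). At 12 h the median was -0.14 (range -0.27 to -0.04), and 0 of 9 were 2-fold lower, against 0.0974% of all genes. The ratio of Ppbp was 0.829 (0.814 to 0.844) and that of Itga2b 0.975 (0.957 to 0.993). Neutrophil markers were already higher in SD at 12 h (median 1.72), with 9 of 9 at least 2-fold higher, against 2.83% of all genes. Monocyte markers were higher too (8 of 8, median 0.58), while erythroid markers were lower (10 of 10, median -0.37). Medians of B, T and NK cell markers were -0.075, -0.191 and -0.167. The part of these markers in the platelet ratios was not tested.

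At 24 h the platelet genes were lower in SD than in SASD, with a median log2 ratio of -1.28 against 0.03 for all genes. Of the 9 measured genes, 8 were at least 2-fold lower, against 3.2% of the 11135 genes measured. Itga2b stood at 1332 scaled CPM in SD and 3793 in SASD, a ratio of 0.351 (95% counting interval 0.344 to 0.358). Gp5 had a ratio of 0.377 (0.357 to 0.397), Tubb1 of 0.405 (0.393 to 0.418) and Ppbp of 0.414 (0.406 to 0.423). Pf4 was the exception at 0.652 (0.624 to 0.680), and Clec1b lay next to it at 0.484 (0.460 to 0.508). The receptor chains and the tubulin were thus further apart than the second granule chemokine. The SD 24 h library was also the richer in neutrophil markers, 9 of 9 of which were higher (median 1.50, summed share 0.675% against 0.221%), and in monocyte markers, 8 of 8 of which were higher (median 0.85, summed share 0.524% against 0.256%). Erythroid markers were lower (10 of 10, median -0.74, summed share 6.37% against 8.21%), and so were the 2 measured of 8 endothelial markers (median -1.13). The summed share of all 8 endothelial markers was 0.00114% in SD 24 h against 0.00225% in SASD 24 h. The part of these cells in the platelet ratios was not tested. With scaling by total counts, the median of all genes at 24 h moved to 0.22 and that of the platelet genes to -1.08, with 9 of 9 below 0 and 7 of 9 at least 2-fold lower.

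At 48 h the order was the other way round, with a median log2 ratio of 0.88 against 0.00 for all genes. All 9 genes were higher in SD 48 h than in SASD 48 h. Of these, Pf4, Itga2b, Gp9 and Clec1b were at least 2-fold higher, 4 of 9 against 4.14% of the 12608 genes measured. Pf4 had the highest ratio, at 2.45 (95% counting interval 2.35 to 2.54), followed by Clec1b at 2.34 (2.23 to 2.45). Gp5 had the lowest, at 1.53 (1.44 to 1.63). The genes that were closest together at 24 h, Pf4 and Clec1b, were thus the furthest apart at 48 h. Neutrophil markers were again higher in SD (9 of 9, median 2.59, summed share 1.15% against 0.277%), and so were the 10 erythroid markers (median 0.46, summed share 0.360% against 0.310%). T cell markers were higher too (8 of 8, median 0.66, summed share 0.162% against 0.109%), while B cell markers were lower (8 of 8, median -0.51, summed share 0.402% against 0.596%). The 3 measured of 8 endothelial markers were higher (median 0.55), with a summed share of all 8 of 0.00103% against 0.0008%. Of monocyte markers, 4 of 8 were above 0 (median 0.010), and of NK cell markers 2 of 6 (median -0.148). With scaling by total counts, the median of all genes was -0.12 and that of the platelet genes 0.76, and Pf4 and Clec1b, 2 of 9, were at least 2-fold higher. Both libraries were among those low in haemoglobin, and the part of these markers in the platelet ratios was not tested.

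**Figure D3:**
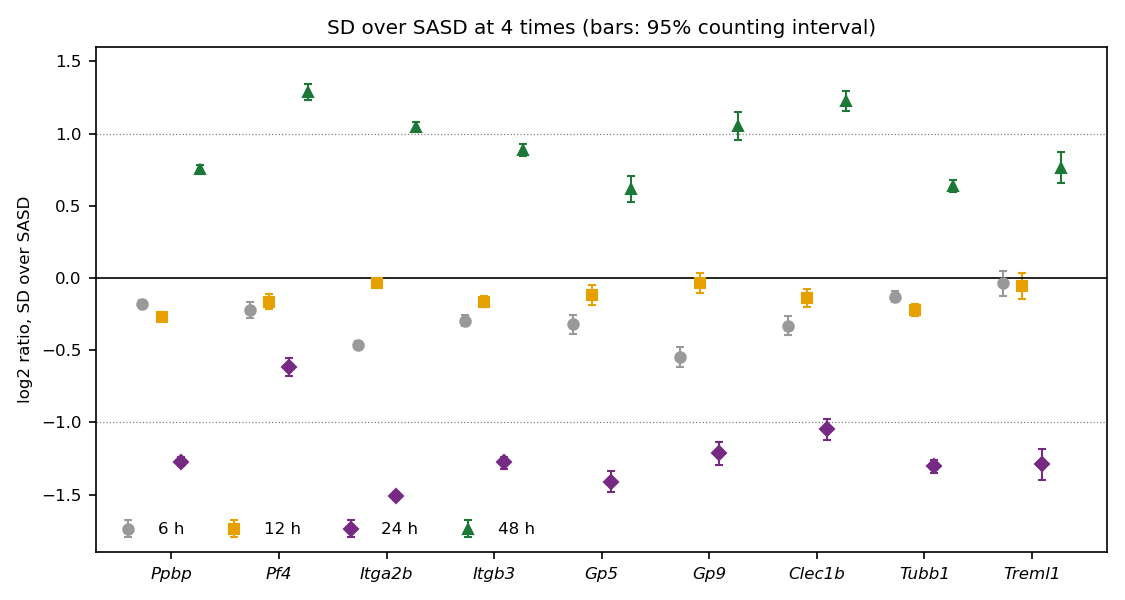
Log2 ratio of SD over SASD (y axis) for each of the 9 measured platelet genes (x axis) at 6, 12, 24 and 48 h, with 95% counting intervals as bars and dotted lines at a 2-fold difference. Points of 6 h lie between -0.55 and -0.04 and those of 12 h between -0.27 and -0.04. Those of 24 h lie between -1.51 and -0.62, and those of 48 h between 0.62 and 1.29.

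Between 6 and 24 h the platelet genes differed in opposite directions in the SD and SASD courses. From SD 6 h to SD 24 h the median log2 ratio was -0.53, with 9 of 9 genes below 0 and 0 of 9 at least 2-fold lower, against 0.47% of all genes. Treml1 had the lowest ratio at 0.563 (95% counting interval 0.524 to 0.605), followed by Tubb1 at 0.578 (0.561 to 0.596), while Clec1b (0.866) and Pf4 (0.876) were nearest to 1. From SASD 6 h to SASD 24 h the median was 0.45, with 9 of 9 above 0 and 0 of 9 at least 2-fold higher, against 0.49% of all genes. Itga2b (1.48, 1.46 to 1.51) and Ppbp (1.48, 1.45 to 1.51) had the highest ratios, and Gp9 the lowest at 1.13 (1.08 to 1.18), whose log2 ratio was -0.01 when totals were used for scaling. That scaling set the median of all genes at -0.16 and that of the platelet genes at 0.27. Both comparisons share their 24 h libraries with that of SD and SASD at 24 h. The haemoglobin share was 6.50% in SD 6 h against 5.64% in SD 24 h, and 6.07% in SASD 6 h against 6.96% in SASD 24 h, so it differed in the same directions. From SD 6 h to SD 24 h, neutrophil markers were higher (9 of 9, median 1.37, 8 at least 2-fold) and so were monocyte markers (8 of 8, median 1.19, 6 at least 2-fold). Over all genes, 3.4% were at least 2-fold higher in that pair. From SASD 6 h to SASD 24 h, 4 of 9 neutrophil markers (median -0.027) and 5 of 8 monocyte markers (median 0.088) were above 0, and 8 of 8 T cell markers were below 0 (median -0.30). The part of these markers and of haemoglobin was not tested.

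Since no group had a second library, tests across libraries used other groups in place of replicates. For SD against SASD these were the 4 shared times, and for the time test the SD and SASD libraries of each time. The p-value for SD against SASD thus asks whether a difference was steady over times, and a change of sign counts as spread. Each trend used the departures of its libraries from a straight slope. Spread between pooled libraries, which may be technical, enters all these p-values. For SD against SASD over 6 to 48 h, with time as a block, 0 of the 9 platelet genes were called by edgeR's quasi-likelihood test at an adjusted p of 0.05, and 0% of the 13370 genes tested were called. At an unadjusted p under 0.05 there were 0 platelet genes and 1082 genes in all, and DESeq2 called 0 platelet genes and 169 genes in all. The median log2 difference of the platelet genes was -0.22, with 1 of 9 (Pf4) above 0, against a median of -0.0033 and 49.2% above 0 over all genes. Ppbp had a log2 difference of -0.25 ± 0.30 (SE, edgeR adjusted p = 0.858) and Gp5 of -0.31 ± 0.29 (adjusted p = 0.822). Without the 48 h libraries, 8 of 9 platelet genes and 1096 of 12841 genes in all were at an unadjusted p under 0.05, and 0 were called. Without the 24 h libraries, the difference of every measured platelet gene was above 0, from 0.047 (Gp5) to 0.284 (Pf4).

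Between times, the platelet genes were lower at 48 h than at 6 h over SD and SASD combined. The log2 difference ran from -0.84 ± 0.40 (SE) for Pf4 to -1.93 ± 0.46 for Gp9, with a median of -1.45, against 0.026 over all genes. In the edgeR test of all times at once, 0 of 9 were called, against 1.02% of all genes, while 7 of 9 (all but Pf4 and Clec1b) had an unadjusted p under 0.05, as did 2461 of the 13370 genes tested. Gp5 had the lowest adjusted p, 0.144, at a difference of -1.85 ± 0.41, and Ppbp an adjusted p of 0.207 at -1.47 ± 0.42. With the same fit and no filter on low counts, 9 of 10 were called, Gp1bb being the exception, among 1890 of 27180 genes in all. DESeq2 called Gp5 (adjusted p = 0.000298) and Treml1 (adjusted p = 0.0163), among 966 of 13370 genes in all. The time difference of the platelet genes therefore depended on the processing for its call, while its direction at 48 h was the same in each setting that gave a value. All 10 erythroid markers were called, with a median log2 difference of -4.45. Of the 72 genes in the platelet pathway lists, not all of which were tested, 1 was called, against 1.02% of all genes. It was Cd36, a scavenger receptor of platelets, red cell precursors and monocytes (-1.97 ± 0.15, edgeR adjusted p = 0.00799). Unlike the 9 measured platelet genes, Cd36 was lower in SD than in SASD at 48 h (log2 ratio -0.318). The part of the low haemoglobin of both 48 h libraries was not tested.

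No platelet gene passed the test for a steady change with hours in either course. Over Con and the 4 SD libraries, 0 of 10 platelet genes were called by edgeR, against 0.124% of 14562 genes, and 0 had an unadjusted p under 0.05, against 1515 genes in all. Without Con, 7 of 9 had an unadjusted p under 0.05, as did 2253 of 13134 genes in all. In that setting 0 platelet genes were called, against 53 genes in all. The slope per unit of log2(1 + hours/6) had a median of -0.059, with 2 of 10 above 0. Over all genes the median was -0.0113, with 46.3% above 0. Over Con and the 5 SASD libraries, 0 of 9 were called, against 0% of 14602 genes, with 0 of 9 platelet genes and 443 genes in all at an unadjusted p under 0.05. The median slope was -0.19, and 0 of 9 were above 0, against -0.00602 and 46.7% above 0 over all genes. DESeq2 likewise called no platelet gene in either trend, against 456 of 14562 genes in all in the SD trend. With a term for the libraries low in haemoglobin, 9 of 9 SASD slopes had an unadjusted p under 0.05, as did 1695 of 14602 genes in all, and again none was called. With the same term in the SD trend, 0 of 10 platelet slopes had an unadjusted p under 0.05, against 3243 of 14562 genes in all. There 0 platelet genes were called, against 796 genes in all.

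Across libraries the platelet genes varied far more together than against each other. The standard deviation of a gene's log2 level over the 10 libraries had a median of 0.78 over the 9 genes, and the standard deviation of its log2 ratio to the mean of the 9 had a median of 0.19. Against that mean, Ppbp spanned 0.30 on the log2 scale from its lowest to its highest library and Treml1 0.32. Pf4 spanned 0.99, from -0.68 in SASD 24 h to 0.32 in SD 48 h, the widest of the 9. Pf4 was thus relatively poor where the other platelet genes were highest. Gp9 lay at -1.53, -1.40 and -1.54 in Con, SD 48 h and SASD 48 h, and between -1.09 and -0.82 in the 7 libraries rich in haemoglobin. Gp5 lay at -1.21, -1.44 and -1.14 against -0.99 to -0.78. Itgb3 lay between 0.73 and 0.93 in 9 libraries and at 0.30 in SASD 120 h. Itgb3 had 4394 counts there.

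**Figure D4:**
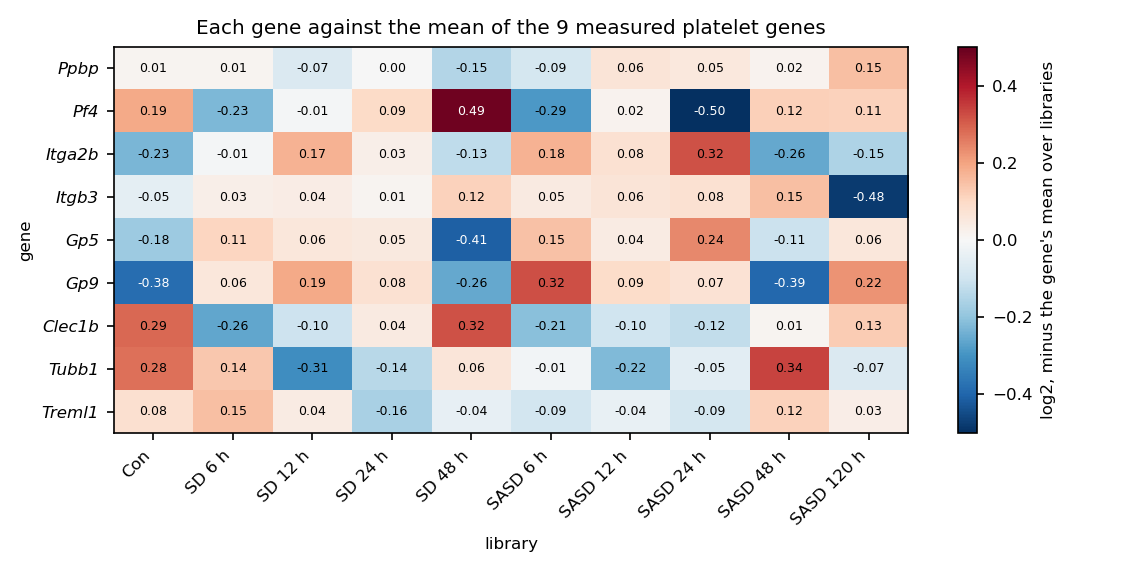
Log2 level of each measured platelet gene (rows) against the mean of all 9 in the same library (columns), minus the gene's own average over the 10 libraries, with red above and blue below that average. Pf4 in SASD 24 h and Itgb3 in SASD 120 h are the darkest blue cells, and Pf4 in SD 48 h the darkest red.

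Other genes of platelets were mostly lower in SD at 24 h too, to different degrees. Of 14 granule genes 11 were measured at 24 h, with a median log2 ratio of -1.30, and 7 were at least 2-fold lower, against 3.2% of all genes. Clu, which codes for the chaperone clusterin, had a ratio of 0.392 (95% counting interval 0.380 to 0.404) and F5, coagulation factor V, of 0.399 (0.382 to 0.418). Thbs1, the matrix protein thrombospondin 1, was nearer to 1 at 0.612, and Tgfb1, a growth factor gene that leukocytes also express, at 0.579. Of 20 receptor genes 18 were measured, with a median of -1.08 and 10 at least 2-fold lower. Mpig6b, an inhibitory receptor of megakaryocytes and platelets, had a ratio of 0.351 (0.331 to 0.372), as low as Itga2b. Cd226, an adhesion receptor also found on T and NK cells, had 0.469, the ADP receptor gene P2ry12 0.528 and the tetraspanin gene Cd9 0.603.

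Genes of signalling and eicosanoid synthesis had a median of -0.83 at 24 h, with 4 of 16 at least 2-fold lower. Alox12, the platelet lipoxygenase, had a ratio of 0.388 (95% counting interval 0.376 to 0.400). Plek, the protein kinase C substrate pleckstrin, had 0.560, the G protein subunit gene Gng11 0.698, and Rap1b, a small GTPase of integrin activation that many blood cells share, 0.829. Cytoskeleton genes had a median of -0.82, with 4 of 12 at least 2-fold lower. Parvb, beta-parvin, had 0.341 (0.329 to 0.353) and Myl9, a myosin light chain, 0.431, whereas Flna and Myh9, which code for filamin A and non-muscle myosin and are widely expressed, had 0.646 and 0.710. Megakaryocyte transcription factor genes had a median of -0.67, with 0 of 10 at least 2-fold lower. Nfe2 had a ratio of 0.609, Mef2c of 0.606, Zfpm1 of 0.541 and Fli1 of 0.859. Several of these factors also act in erythroid cells or leukocytes.

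At 48 h the medians of the same lists lay above 0. The medians were 0.54 for granule genes (2 of 12 at least 2-fold higher, against 4.14% of all genes), 0.75 for receptors (3 of 18), 0.61 for signalling (0 of 16), 0.45 for the cytoskeleton (1 of 12) and 0.72 for transcription factors (1 of 10). Clu had a ratio of 2.15 (95% counting interval 2.08 to 2.23), Mpig6b of 2.34 (2.19 to 2.50) and Myl9 of 2.29 (2.20 to 2.39). At 48 h the widely expressed genes were near 1, with 0.986 for Flna, 0.991 for Myh9 and 1.11 for Rap1b. Mef2c, which B cells also express, was lower in SD at 0.713.

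**Figure D5:**
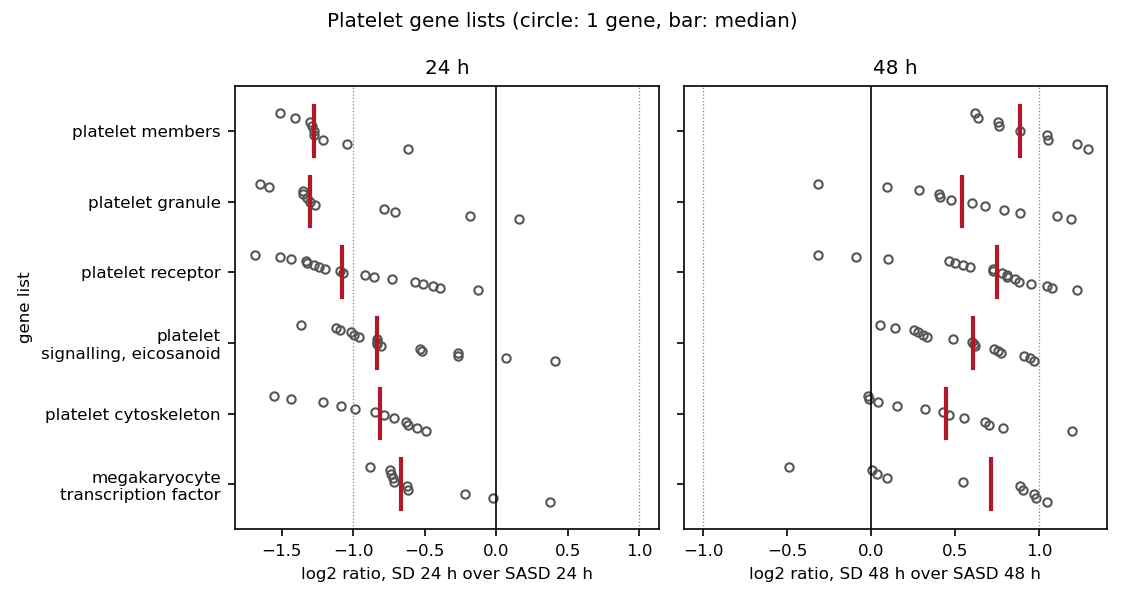
Log2 ratio of SD over SASD at 24 h (left) and 48 h (right) for every measured gene of the platelet genes and of 5 platelet and megakaryocyte lists (rows), with 1 circle per gene, bars at the medians and dotted lines at a 2-fold difference. Medians at 24 h run from -1.30 (granule) to -0.67 (transcription factors), and those at 48 h from 0.45 (cytoskeleton) to 0.88 (the 9 measured platelet genes).

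Over the 10 libraries, the log2 level of each measured platelet gene was closely related to the mean of the other 8, with a Pearson r from 0.939 (Pf4) to 0.996 (Itga2b); r was 0.992 for Ppbp, 0.990 for Treml1 and 0.985 for Gp5. These values describe 10 libraries that share scaling and differ in depth, and carry no test. Among 12016 other genes, those most like the mean of the platelet genes included Alox12 (r = 0.999), Odc1 (0.997), F2rl2 (0.997), P2rx1, Pcmt1 and Rgs10 (each 0.996), and Clu, Mfsd2b, Mink1, Nptn and Rbpms2 (each 0.995). F2rl2 codes for a thrombin-cleaved receptor, P2rx1 for an ATP-gated channel and Mfsd2b for a sphingosine-1-phosphate exporter of red cells and platelets. Of these, Alox12, F2rl2, P2rx1, Rgs10 and Clu were in the platelet lists above, and Odc1, Pcmt1, Mfsd2b, Mink1, Nptn and Rbpms2 were not. Alox12 ran from 245 to 1584 scaled CPM and Odc1, the ornithine decarboxylase of polyamine synthesis, from 203 to 975. In all, 114 genes had an r of at least 0.98, so the order at the top rests on small differences.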

How the data were processed

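Blood RNA of 10 pools of 3 mice was sequenced, 1 library per group. Reads were trimmed by the authors (Trimmomatic 0.39) and placed on mm10 (STAR 2.7.9a), per the submitters' processing notes. Per the file headers, the deposited values are raw counts of read pairs over exons from featureCounts 2.0.3, with no strand option and without pairs that overlap several genes, so antisense and overlapping genes are uncertain. Symbols were found for 32158 of 32285 genes. Exon lengths and positions came from GENCODE release 21, which may differ from the authors' annotation.

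The platelet genes, gene lists and tests were chosen with earlier results of these data known. The text names all 10 platelet genes, up to 4 measured genes per list with the highest mean level per kilobase, and the 12 genes most like their mean, of which 1 is not reported here. Gp1ba and Cd36 were named after their values were seen. The tests were edgeR's quasi-likelihood tests (edgeR 4.0.16, R 4.3.3) with TMM scaling, a minimum mean count of 10 and p-values adjusted by Benjamini-Hochberg to a threshold of 0.05, with DESeq2 1.42.0 as an alternative. The fits were also tested on simulated data. Single libraries were compared by ratios of scaled CPM where the mean count of the pair reached 25, with a prior count of 2 for list medians and counts of 2-fold genes and none for printed ratios. Intervals of ratios are exact conditional binomial (Clopper-Pearson, scipy 1.17.1).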

Additional observations from a re-analysis of the deposited data

Results flagged for a closer look

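The platelet genes lay on opposite sides of 0 at 2 times. Over the 9 measured genes, the median log2 ratio (SD over SASD) was -1.277 at 24 h and 0.883 at 48 h, with 9 of 9 below 0 at 24 h and 9 of 9 above 0 at 48 h. Each time had 1 library per method, so the difference between the times was not tested. Both 48 h libraries were low in haemoglobin, and both 24 h libraries were not. The 48 h libraries differed from each other in depth and in olfactory receptor genes with a count (27.6% in SD, 61.9% in SASD).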

How the results depend on the processing

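Scaling by total counts, with or without haemoglobin, moved the platelet median log2 ratio of SD over SASD to -1.082 and -1.103 at 24 h and to 0.758 and 0.759 at 48 h, and that of SASD 24 h over SASD 6 h to 0.268 and 0.282. In the fit of SD against SASD, the genes called numbered 389 without a count filter, 169 with DESeq2 and 0 to 237 with a time left out. Called genes of the time test numbered 415 with total counts, 1890 without a filter, 966 with DESeq2 and 0 to 509 with a time left out. Platelet genes called there numbered 1 (Gp5) with total counts, 9 without a filter, 2 (Gp5, Treml1) with DESeq2 and 0 to 2 with a time left out, the 2 being Gp5 and Treml1 without 24 h. No 48 h against 6 h value exists without either of those times. The SD trend called 63 genes without a filter, 456 with DESeq2, 796 with a term for libraries low in haemoglobin, 0 on linear hours and 0 to 511 with a library left out, and the SASD trend 0 to 1 (1 without SASD 48 h). The cause of these changes was not tested.

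With a time left out (lowest without 48 h, highest without 24 h), the log2 difference of SD against SASD ran from -0.567 to 0.089 for Ppbp, -0.330 to 0.284 for Pf4, -0.664 to 0.168 for Itga2b, -0.572 to 0.128 for Itgb3, -0.607 to 0.047 for Gp5, -0.593 to 0.140 for Gp9, -0.501 to 0.234 for Clec1b, -0.545 to 0.084 for Tubb1 and -0.451 to 0.211 for Treml1. Pf4 was at -0.104 without the time block. The slopes that changed sign with a library left out follow. The SD slope ran from -0.547 to 0.207 for Ppbp, -0.178 to 0.204 for Pf4, -0.579 to 0.376 for Itga2b, -0.456 to 0.259 for Itgb3, -0.117 to 0.256 for Gp1bb, -0.716 to 0.322 for Gp5, -0.658 to 0.454 for Gp9, -0.229 to 0.130 for Clec1b and -0.587 to 0.131 for Treml1, and was -0.008 for Pf4 on linear hours. Tubb1 kept its sign at -0.472 to -0.011. The SASD slope ran from -0.604 to 0.067 for Itga2b, -0.654 to 0.010 for Itgb3 and -0.519 to 0.046 for Gp5, and the other 6 kept their sign, with -0.440 to -0.002 for Ppbp and -0.506 to -0.010 for Gp9 closest to 0. None of these was called.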
